A study of Mus musculus with 10 samples.

Results

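The genes of Wnt signalling at the cell surface were examined in OP9 cells, a stromal line that supports haematopoietic cells in culture. Members were all genes of the deposited table with the symbol of a Wnt ligand, a Frizzled receptor (*Fzd*), a secreted Frizzled-related protein (*Sfrp*) or a Dickkopf protein (*Dkk1* to *Dkk4*), together with *Ror1*, *Ror2*, *Ryk*, *Lrp5*, *Lrp6*, *Wif1*, *Axin2* and *Lef1*. These symbols matched 43 of 26888 genes, 19 of them ligands, 9 Frizzled receptors, 4 Sfrp genes, 3 Dickkopf genes and 8 genes named singly. RNA-seq was performed on 10 libraries to compare OP9 cells grown flat with the same line grown as a reaggregate. All cells carried the strain label (C57BL/6xC3H)F2-op/op. The labels describe the line as stromal cells of foetal calvaria, whereas the paper derives it from newborn animals. The reaggregates (n = 6) were made from trypsinised cells pelleted by centrifugation, were kept for 48 h on 0.8-µm nitrocellulose filters between liquid and gas, and were dissociated with collagenase and dispase before RNA was extracted. Of these, reaggregates 2, 4 and 6 received IL-3 (200 µg/µl in the Methods), and reaggregates 1, 3 and 5 did not. The flat cultures (n = 4) were submersed. Flat cultures 2 and 4 are labelled as cells of the de Bruijn laboratory, no laboratory is named for flat cultures 1 and 3, and none is named for the reaggregates. Per the Methods, the groups of Medvinsky and de Bruijn had kept the cells used flat, and the culture of each group is not stated there.

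Wnt ligands are lipid-modified secreted glycoproteins. They bind Frizzled receptors together with the co-receptors Lrp5 and Lrp6, which stops the degradation of β-catenin and lets it act with Tcf and Lef factors on target genes such as *Axin2*, or they act through Ror and Ryk receptors and planar polarity proteins without β-catenin. Sfrp proteins and Wif1 bind the ligands outside the cell, and Dkk1 blocks the co-receptors. In bone marrow and calvaria the pathway is known for promoting the osteoblast fate of stromal cells over the adipocyte fate, and it takes part in the niche of haematopoietic stem cells.

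Each value is in RPM, reads of the gene per M reads on all genes of its library. In each library the commonest value between 0.05 and 0.2 RPM was read as a single sequencing read. By this measure reaggregates held from 7.35 to 9.43 M reads (median 8.49 M) and flat cultures from 8.26 to 8.70 M (median 8.37 M). At this depth 3 reads, used as the floor of detection, corresponded to between 0.318 and 0.408 RPM, and this floor covers counting error only. Differences are given on the log2(RPM + 0.5) scale from limma, where added RPM shrink the fold change of weak genes, and 16933 genes passed 0.5 RPM in some library and were tested. To be called, a gene had to change 2-fold or more with a p of 0.05 or less after Benjamini-Hochberg adjustment across these genes.

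Reaggregates 1 and 2, 3 and 4, and 5 and 6 were closer to each other than to other reaggregates. Pearson's r of log2 values across genes, which are not independent replicates, was between 0.994 and 0.995 in these 3 pairs and between 0.961 and 0.980 in the 12 other pairs. Chi-square per gene at 10 to 50 RPM averaged from 1.196 to 2.06 in the 3 pairs, near the value of 1 for pure counting noise, and from 8.08 to 23.9 in the others. Flat cultures with the same label had r of 0.965 and 0.984, and those with different labels had r between 0.913 and 0.931. Flat culture 3 had r between 0.952 and 0.966 with the reaggregates, close to its r with flat culture 1, and the other flat cultures had r between 0.878 and 0.953 with them. The labels do not say that libraries came from separate cultures, so p-values measure the spread between these libraries, which may be technical. The 6 reaggregates were counted singly because each pair holds 1 library with IL-3 and 1 without, and calls of members and of named pathway genes are also given with each pair averaged. In RNA from whole cultures, fewer cells that express a gene and less RNA per cell cannot be told apart.

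Of the 43 members, 21 exceeded 0.5 RPM in at least 1 library and could be tested. They comprised 7 ligands, *Wnt2b*, *Wnt4*, *Wnt5a*, *Wnt5b*, *Wnt9a*, *Wnt10b* and *Wnt16*, 7 Frizzled genes, the receptors *Lrp5*, *Lrp6*, *Ror1* and *Ryk*, and the antagonists *Dkk3*, *Sfrp1* and *Sfrp4*. Above the floor in all 10 libraries were 14 of them. The other 22 members never passed the floor of 3 reads, although some, such as *Axin2*, had reads under it. The highest value among those 22 was 0.359 RPM, for *Wif1* in flat culture 3. *Dkk2*, *Wnt3*, *Wnt9b* and *Wnt10a* were listed at 0 in every library. Compared per kb of annotated exon, the highest mean level in reaggregates was that of *Dkk3* at 270 RPM per kb, followed by *Fzd1* at 87.6, *Ryk* at 36.0, *Lrp5* at 31.6 and *Lrp6* at 21.6 RPM per kb. Among ligands *Wnt4* had 6.10, *Wnt5b* 4.05, *Wnt5a* 2.12 and *Wnt9a* 1.24 RPM per kb of exon. *Dkk3* and these 4 receptors each stood above every ligand on this scale in reaggregates. In flat cultures with no laboratory named *Wnt4* was at 18.9 RPM per kb, above *Lrp5* at 14.8 and *Lrp6* at 10.7, and with the de Bruijn label at 0.0286 RPM per kb.

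**Figure D1:**
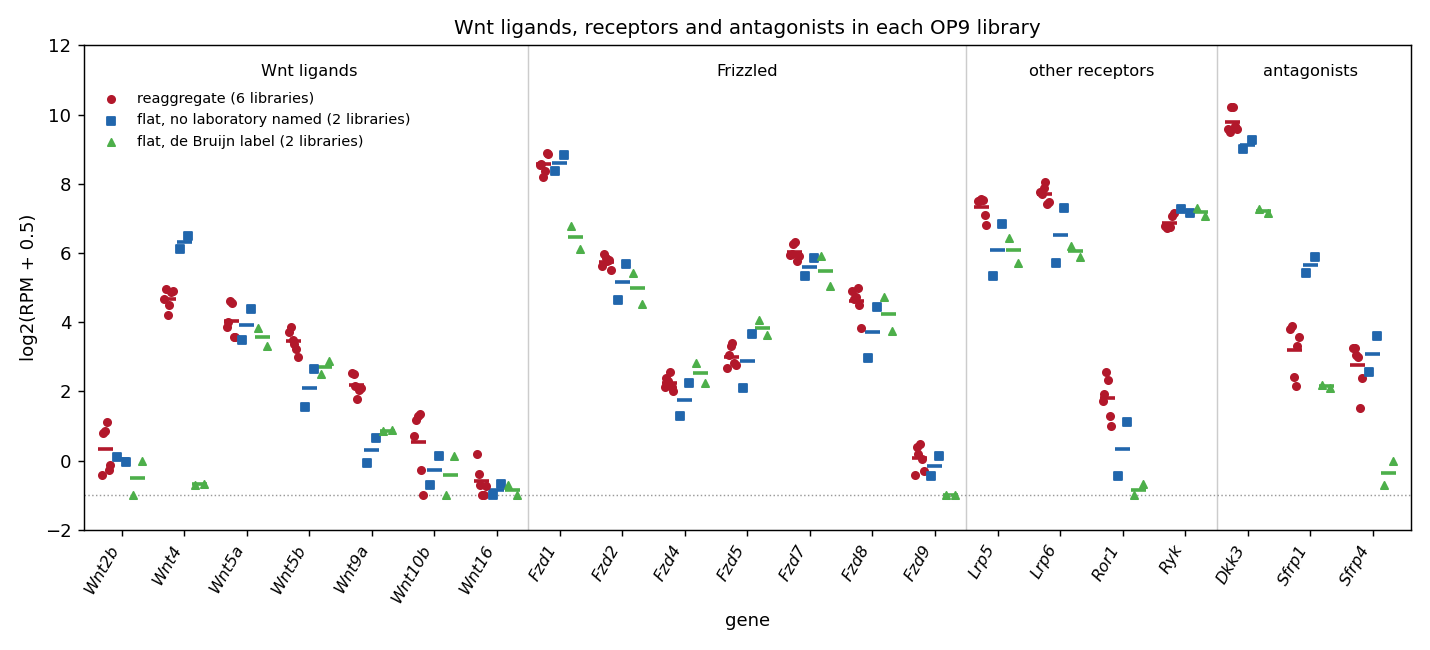
Level of the 21 tested members on the log2(RPM + 0.5) scale (y axis) by gene (x axis). Each point is 1 library, short bars are means of the 6 reaggregates (red circles), the 2 flat cultures with no laboratory named (blue squares) and the 2 with the de Bruijn label (green triangles), and the dotted line is 0 RPM. *Wnt9a*, *Wnt5b*, *Lrp6* and *Dkk3* lie higher in every reaggregate than in every flat culture, and *Wnt4* lies near the dotted line in both flat cultures with the de Bruijn label.

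Between 6 reaggregates and 4 flat cultures, 6 of the 21 tested members were called higher, *Wnt9a*, *Wnt5b*, *Lrp5*, *Lrp6*, *Ror1* and *Dkk3*, where 7.32% of all tested genes were called higher. None was called lower, where 6.53% of all genes were. Of the 21, 18 had a higher and 3 a lower mean log2 value in reaggregates, and the median log2 fold change was 0.68 beside 0.04 over all 16933 genes. A member can pass the filter through its higher group alone, so this median is a description of the members tested. In 4 members, *Wnt9a*, *Wnt5b*, *Lrp6* and *Dkk3*, every reaggregate exceeded every flat culture, as in 7.8% of all tested genes, and in 0 members every reaggregate was below, as in 11.4% of all genes. With each pair of close reaggregates averaged, 1 member, *Wnt9a*, was called higher, where 321 of all tested genes were called higher and 429 lower. The same member alone was called with only the reaggregates without IL-3 or only those with it.

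Among the ligands, *Wnt9a* and *Wnt5b* were called higher in reaggregates counted singly, and *Wnt9a* alone with each close pair averaged. *Wnt9a* (ENSMUSG00000000126, plus strand of chromosome 11 from 59120430 to 59147054 in NCBIM37, the build called mm9), which acts on osteoblast and joint development, was at 5.26, 5.17, 3.92, 2.94, 3.58 and 3.82 RPM in reaggregates 1 to 6 and at 0.46, 1.31, 1.08 and 1.34 RPM in flat cultures 1 to 4. All reaggregates lay above all flat cultures. The means were 4.12 ± 0.918 RPM (SD, n = 6) against 1.05 ± 0.409 RPM (SD, n = 4), and the log2 fold change was 1.60 (SE 0.25, limma adjusted p = 0.00129). The exact permutation test, two-sided, gave p = 0.00476 for *Wnt9a*, the smallest that 6 against 4 allows and the same as for *Wnt5b*, *Lrp6* and *Dkk3*, but it takes the close reaggregates as separate samples. Its adjusted p was between 0.000986 and 0.0476 under the 24 alternatives, 0.0345 with the close reaggregates averaged. *Wnt5b* (minus strand of chromosome 6 from 119382549 to 119494336), a ligand known mainly for signalling without β-catenin and for promoting adipocyte differentiation, was at 12.7, 14.0, 10.8, 9.86, 8.89 and 7.54 RPM in reaggregates 1 to 6 and at 2.42, 5.13, 5.76 and 6.92 RPM in flat cultures 1 to 4. The groups did not overlap, and the lowest reaggregate and the highest flat culture were close. The log2 fold change of *Wnt5b* was 1.05 (SE 0.279, limma adjusted p = 0.0166), just past the fold threshold. It was 0.999 without reaggregate 1, 0.97 without reaggregate 2 and 0.77 without flat culture 1, and the call was lost each time. With the close reaggregates as a random block its adjusted p was 0.0849, and over the 24 alternatives it was between 0.0133 and 0.153.

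*Wnt5a*, the related ligand that signals through Ror receptors, was at 13.9, 15.7, 23.8, 23.2, 11.5 and 11.5 RPM in reaggregates 1 to 6 and at 10.6, 13.7, 20.2 and 9.35 RPM in flat cultures 1 to 4. The groups overlapped over most of their range, and the log2 fold change was 0.29 (SE 0.281, limma adjusted p = 0.441), or 0.18 without reaggregate 3 or 4, 0.50 without flat culture 3 and 0.14 without flat culture 4. *Wnt4* (ENSMUSG00000036856, plus strand of chromosome 4 from 136833404 to 136855641), a ligand of kidney, gonad and bone development, was at 24.9, 30.4, 17.8, 22.3, 28.7 and 29.5 RPM in reaggregates 1 to 6, at 69.3 and 89.3 RPM in flat cultures 1 and 3, and at 0.119 and 0.121 RPM, the value of 1 read, in flat cultures 2 and 4. The reaggregates thus lay between both kinds of flat culture, below the first and above the second. Against all 4 flat cultures the log2 fold change of *Wnt4* was 1.87 (SE 1.34, limma adjusted p = 0.297), while the mean RPM was lower in reaggregates, 25.6 ± 4.90 (SD, n = 6) beside 39.7 ± 46.4 (SD, n = 4). Leaving out flat culture 1, 2, 3 or 4 gave log2 fold changes of 2.98, 0.71, 3.10 and 0.71, none of them called. The remaining ligands were low. *Wnt10b*, an inhibitor of adipocyte formation, was between 0 and 2.05 RPM in reaggregates and between 0 and 0.607 RPM in flat cultures (limma adjusted p = 0.167). *Wnt2b* was between 0.257 and 1.66 RPM and between 0 and 0.576 RPM (limma adjusted p = 0.246). *Wnt16* exceeded the floor in reaggregate 1 only, at 0.641 RPM.

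The Frizzled receptors, which bind the ligands, had 7 of 9 members above 0.5 RPM, and 0 of them were called against all flat cultures. *Fzd1* was at 371, 377, 293, 328, 469 and 462 RPM in reaggregates 1 to 6 and at 328, 110, 457 and 68.8 RPM in flat cultures 1 to 4. Flat cultures 1 and 3 lay within the range of the reaggregates, and flat cultures 2 and 4 lay below it. Its log2 fold change was 1.04 (SE 0.449, limma adjusted p = 0.0982), and it was 1.48 and called without flat culture 3 and 0.57 without flat culture 4. *Fzd2* was at 49.0, 62.0, 57.4, 53.6, 54.8 and 44.7 RPM in reaggregates and at 24.3, 42.7, 50.7 and 22.7 RPM in flat cultures. Only flat culture 3 overlapped with the reaggregates, and the log2 fold change, 0.68 (SE 0.226, limma adjusted p = 0.042), was under the fold threshold. *Fzd7* had a median of 61.8 RPM in reaggregates, from 54.1 to 79.0, and was at 39.6, 59.4, 57.5 and 32.8 RPM in flat cultures 1 to 4, with a log2 fold change of 0.49 (limma adjusted p = 0.0712). *Fzd8* had a median of 25.5 RPM in reaggregates, from 13.7 to 31.0, and was at 7.37, 25.8, 21.2 and 12.9 RPM in flat cultures, with a log2 fold change of 0.63 (limma adjusted p = 0.163), or 0.30 without flat culture 1. Flat cultures 1 and 4 were the lowest flat cultures for *Fzd2*, *Fzd7* and *Fzd8*. *Fzd5* had a median of 7.14 RPM in reaggregates, from 5.90 to 10.1, and was at 3.80, 16.3, 12.2 and 11.8 RPM in flat cultures, the only tested Frizzled gene with a negative log2 fold change, −0.36 (limma adjusted p = 0.435), or −0.78 without flat culture 1 and −0.13 without flat culture 2. *Fzd4* was between 3.51 and 5.38 RPM in reaggregates and between 1.96 and 6.56 RPM in flat cultures. *Fzd9* was at most 0.896 RPM. *Fzd3* and *Fzd6* were never above the floor.

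The co-receptors of the β-catenin branch, *Lrp5* and *Lrp6*, were both called higher in reaggregates counted singly. With each close pair averaged neither was called (limma adjusted p = 0.0803 and 0.0639). *Lrp6* (minus strand of chromosome 6 from 134396494 to 134516983) was at 217, 208, 237, 266, 170 and 177 RPM in reaggregates 1 to 6 and at 52.3, 73.5, 158 and 58.4 RPM in flat cultures 1 to 4. Every reaggregate was above every flat culture, of which flat culture 3 was the highest. The means were 213 ± 36.2 RPM (SD, n = 6) against 85.6 ± 49.1 RPM (SD, n = 4), and the log2 fold change was 1.44 (SE 0.275, limma adjusted p = 0.00383). *Lrp5* (minus strand of chromosome 19 from 3584825 to 3686564) was at 179, 179, 189, 185, 136 and 112 RPM in reaggregates and at 39.8, 85.7, 113 and 52.1 RPM in flat cultures. Reaggregate 6 and flat culture 3 overlapped by 1 RPM, and the other libraries of both groups were apart. The log2 fold change of *Lrp5* was 1.25 (SE 0.275, limma adjusted p = 0.00729).

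*Ror1*, a receptor tyrosine kinase-like protein that binds Wnt5a, was at 2.82, 3.26, 5.44, 4.48, 1.95 and 1.49 RPM in reaggregates 1 to 6 and at 0.23, 0, 1.68 and 0.121 RPM in flat cultures 1 to 4. Of the flat cultures only flat culture 3 was above the floor of 3 reads, and it overlapped with reaggregate 6. The log2 fold change was 2.06 (SE 0.432, limma adjusted p = 0.00585), and 1.47 and not called against flat cultures 1 and 3 alone. Over the groups these values correspond to 163 reads in reaggregates and 17 in flat cultures, a ratio of levels of 6.35 with a 95% Clopper-Pearson interval from 3.85 to 11.2 for counting error only. Its relative *Ror2* was under 1 read in every library. *Ryk*, a Wnt-binding receptor with an inactive kinase domain, was at 109, 106, 108, 107, 134 and 141 RPM in reaggregates 1 to 6 and at 153, 156, 143 and 135 RPM in flat cultures 1 to 4. Flat culture 4 overlapped with reaggregate 6, and the log2 fold change, −0.33 (SE 0.13, limma adjusted p = 0.0762), did not pass the test.

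The antagonist *Dkk3*, a Dickkopf family member whose action on Wnt signalling is less clear than that of Dkk1, had the highest mean RPM of all members in reaggregates. *Dkk3* (minus strand of chromosome 7 from 119259533 to 119302571) was at 771, 728, 1180, 1190, 816 and 762 RPM in reaggregates 1 to 6 and at 510, 154, 615 and 141 RPM in flat cultures 1 to 4. All reaggregates were above all flat cultures, and flat cultures 2 and 4 were the lowest. The means were 908 ± 217 RPM (SD, n = 6) against 355 ± 243 RPM (SD, n = 4), and the log2 fold change was 1.63 (SE 0.408, limma adjusted p = 0.0132). Against flat cultures 1 and 3 alone it was 0.66 and was not called (limma adjusted p = 0.089), and against flat cultures 2 and 4 alone it was 2.59. *Sfrp1* (ENSMUSG00000031548, plus strand of chromosome 8 from 24521974 to 24560104), which binds Wnt ligands, was at 13.5, 14.4, 4.79, 3.97, 9.44 and 11.4 RPM in reaggregates 1 to 6, at 42.7 and 58.1 RPM in flat cultures 1 and 3, and at 4.06 and 3.77 RPM in flat cultures 2 and 4. As for *Wnt4*, flat cultures 1 and 3 were above every reaggregate, while flat culture 2 lay inside the range of the reaggregates and flat culture 4 just under it. The log2 fold change against all flat cultures was −0.70 (SE 0.751, limma adjusted p = 0.486), and −0.19, −1.27, −0.05 and −1.31 without flat culture 1, 2, 3 or 4. *Sfrp4* was at 9.11, 8.99, 7.84, 7.43, 2.39 and 4.78 RPM in reaggregates 1 to 6 and at 5.41, 0.119, 11.7 and 0.486 RPM in flat cultures 1 to 4. Reaggregates were within or below the range of flat cultures 1 and 3 and above flat cultures 2 and 4, and the log2 fold change was 1.38 (SE 0.749, limma adjusted p = 0.174), or 2.13 and called without flat culture 3, and 0.70 and 0.92 without flat culture 2 or 4. *Dkk1*, *Dkk2*, *Sfrp2*, *Sfrp5* and *Wif1* were never above the floor. *Axin2*, the feedback inhibitor that is read as a general target of β-catenin, was at most 0.257 RPM. *Lef1*, a partner of β-catenin in the nucleus and also a target, was at most 0.243 RPM. Both had reads in some libraries, but neither passed the floor of 3 reads in any.

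With each pair of close reaggregates averaged, the limma adjusted p was 0.0639 for *Lrp6*, 0.0649 for *Ror1*, 0.0803 for *Lrp5*, 0.112 for *Dkk3* and 0.126 for *Wnt5b*, while the log2 fold changes were 1.44, 2.06, 1.26, 1.63 and 1.06. Across the 24 alternatives the adjusted p reached from 8.51e-05 to 0.0658 for *Lrp6*, from 0.000473 to 0.0786 for *Ror1*, from 0.00111 to 0.0986 for *Lrp5* and from 2.17e-05 to 0.121 for *Dkk3*. All of these alternatives kept a higher mean log2 value in reaggregates for these 4 genes and for *Wnt5b*.

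The flat cultures of different labels differed in 5 of the 21 tested members, all lower in those with the de Bruijn label, where 3.87% of all tested genes were called lower. None was called higher, where 1.82% of all genes were. *Wnt4* differed most, from a mean of 79.3 RPM in flat cultures 1 and 3 to 0.12 RPM in flat cultures 2 and 4, a log2 difference of −7.00 (SE 0.357, limma adjusted p = 0.0049, n = 2 and 2 in a limma fit across all genes). These values correspond to 1347 reads against 2, a ratio of levels of 659 with a 95% Clopper-Pearson interval from 182 to 5449, for counting error only. *Sfrp1* fell from a mean of 50.4 to 3.92 RPM (log2 difference −3.51, limma adjusted p = 0.00888) and *Sfrp4* from 8.56 to 0.303 RPM (−3.44, limma adjusted p = 0.0231). *Fzd1* fell from a mean of 393 to 89.4 RPM (log2 difference −2.15, limma adjusted p = 0.0356) and *Dkk3* from 563 to 148 RPM (−1.92, limma adjusted p = 0.0267). Without the filter on low values, *Wnt4* alone was called, at an adjusted p of 0.0189, and the adjusted p was 0.0518 for *Sfrp1*, 0.0821 for *Dkk3*, 0.18 for *Fzd1* and 0.186 for *Sfrp4*. In the same order as in that sentence, the 8 alternatives gave an adjusted p from 1.87e-07 to 0.0189, from 0.000279 to 0.0518, from 0.000997 to 0.0821, from 0.000636 to 0.18 and from 0.0012 to 0.186. Leaving out 1 flat culture, in a fit that also holds the reaggregates and takes the lone culture to vary like the other groups, added *Lrp6* and *Ror1* to the lower genes without flat culture 1, and *Fzd4* and *Fzd5* as higher genes without flat culture 3. The co-receptor *Lrp5* and the receptor *Ryk* had log2 differences of −0.01 and −0.03 between the labels, from −0.75 to 0.74 and from −0.13 to 0.08 over the alternatives.

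The reaggregates were next compared with each kind of flat culture. Both comparisons share the 6 reaggregates. Against flat cultures 1 and 3 alone, 4 of the 21 members were called higher (3.7% of all genes), *Wnt9a*, *Wnt5b*, *Lrp5* and *Lrp6*, and 2 were called lower (6.17% of all genes), *Wnt4* and *Sfrp1*. *Wnt9a* had a log2 fold change of 1.88 (limma adjusted p = 0.00313), *Wnt5b* of 1.35 (0.0254), *Lrp5* of 1.25 (0.0446) and *Lrp6* of 1.202 (0.0491), with adjusted p in parentheses. *Wnt4* fell by 1.62 on the log2 scale (SE 0.221, limma adjusted p = 0.00202) and *Sfrp1* fell by 2.46 (SE 0.484, limma adjusted p = 0.0108). Both were lower in 6 of 6 reaggregates than in either flat culture. The share of all tested genes that separated this way was not computed. Against flat cultures 2 and 4 alone, 9 members were called higher (15.2% of all genes) and 0 lower (10.5% of all genes). *Wnt4* was higher by 5.37 on the log2 scale (SE 0.232, limma adjusted p = 3.15e-07), *Sfrp4* by 3.10, *Ror1* by 2.65, *Dkk3* by 2.59, *Fzd1* by 2.11, *Lrp6* by 1.67, *Wnt9a* by 1.31, *Lrp5* by 1.26 and *Fzd9* by 1.08. *Wnt9a*, *Lrp5* and *Lrp6* were called against either kind of flat culture, and *Wnt4* was called in opposite directions. These calls count close reaggregates singly. With each pair averaged, an alternative chosen after the values were seen, 0 members were called higher against flat cultures 1 and 3, where the adjusted p was 0.051 for *Wnt9a*, 0.158 for *Wnt5b*, 0.199 for *Lrp5* and 0.219 for *Lrp6*, and *Wnt4* alone was called lower (adjusted p = 0.0326). The same 9 members were called higher against flat cultures 2 and 4. Of all tested genes, the averaged fit called 122 higher and 398 lower against flat cultures 1 and 3. Against flat cultures 2 and 4 it called 2515 higher and 1714 lower. A member called against 1 kind of flat culture only, such as *Ror1* (adjusted p = 0.0786 against flat cultures 1 and 3), is not thereby shown to differ between them.

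**Figure D2:**
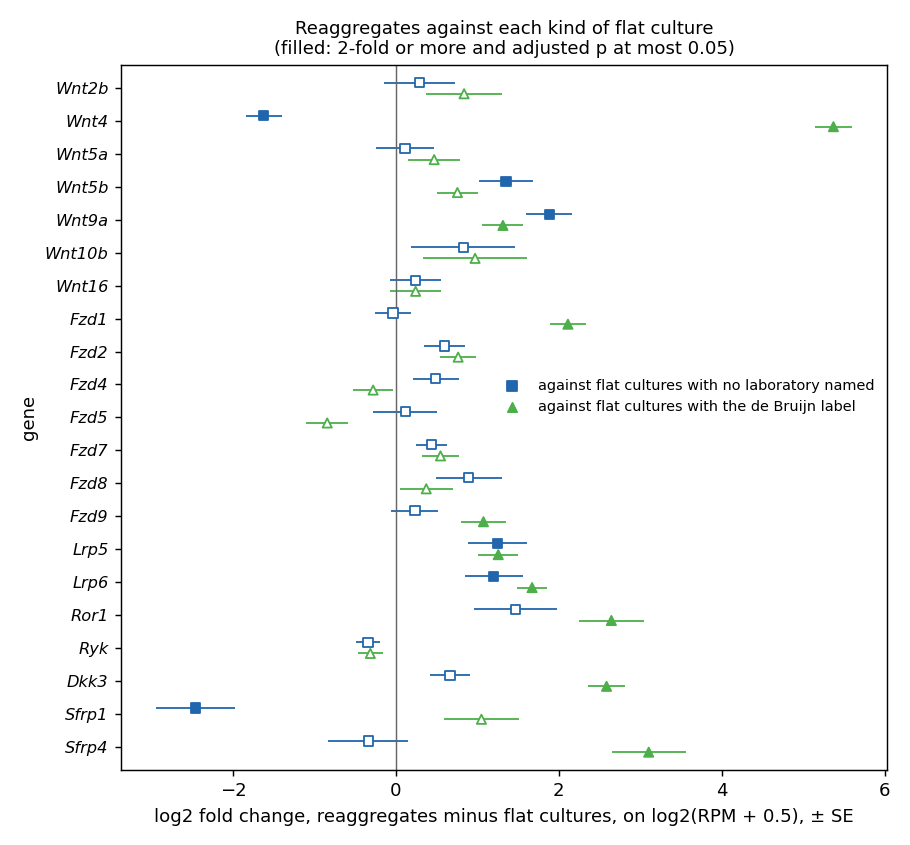
Log2 fold change of the 6 reaggregates against the 2 flat cultures with no laboratory named (blue squares) and against the 2 with the de Bruijn label (green triangles) on the x axis, in log2(RPM + 0.5), for the 21 tested members on the y axis. Bars are standard errors from limma, and filled symbols mark genes that changed at least 2-fold with an adjusted p of at most 0.05. *Wnt4* lies at −1.62 and 5.37, whereas *Wnt9a*, *Lrp5* and *Lrp6* are filled and positive in both, with the 6 reaggregates counted singly.

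Of the other genes of the pathway, 117 were listed beyond the members, 101 were tested, 18 (17.8%) were called higher and 4 (3.96%) lower in reaggregates, beside 7.32% and 6.53% of all tested genes, and their median log2 fold change was 0.39 beside 0.04 over all genes. With each pair of close reaggregates averaged 7 were called higher and 2 lower, beside 321 and 429 of all tested genes. Of the genes named below *Porcn*, *Gpr177*, *Sulf2*, *Ctnnb1*, *Dact3*, *Nr4a2*, *Ccnd1* and *Fosl1* kept their call when averaged. Of the 8 genes of Wnt lipidation and secretion, 2 (25%) were called higher and 1 (12.5%) lower, with a median of −0.37. *Porcn*, the acyltransferase that adds the lipid to Wnt ligands, was at 28.4, 29.1, 47.2, 42.0, 18.7 and 17.4 RPM in reaggregates 1 to 6 and at 3.68, 3.70, 11.9 and 4.01 RPM in flat cultures 1 to 4, so that the log2 fold change was 2.37 (SE 0.374, limma adjusted p = 0.00135). *Gpr177*, the older symbol of *Wls*, the carrier that takes lipidated Wnt to the cell surface, was between 789 and 1110 RPM in reaggregates (median 989) and at 474, 404, 467 and 397 RPM in flat cultures, with 1.12 as log2 fold change (SE 0.152, limma adjusted p = 0.000607). Both genes thus had every reaggregate above every flat culture. *Tmed5*, a cargo receptor of early secretion, fell to 81.4 ± 10.5 RPM (SD, 6 reaggregates) beside 171 ± 53.3 RPM (SD, 4 flat cultures), log2 fold change −1.01 (limma adjusted p = 0.00517), and −0.67 and not called against flat cultures 1 and 3 alone.

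Among extracellular modulators outside the symbol rule, 15 of 26 listed genes were tested, 4 (26.7%) were called higher and 1 (6.67%) lower, and the median was 0.22. *Sulf2*, a sulphatase that edits heparan sulphate, rose to 298 ± 49.4 RPM (SD, 6 reaggregates) beside 82.6 ± 56.3 RPM (SD, 4 flat cultures), by 2.04 on the log2 scale (limma adjusted p = 0.00129). *Gpc6*, a heparan sulphate proteoglycan, and *Lrp4*, a receptor that binds sclerostin and Dkk1, were called against all flat cultures, at 338 ± 30.8 beside 113 ± 93.1 RPM and 24.0 ± 8.04 beside 9.92 ± 8.48 RPM. Neither was called against flat cultures 1 and 3 alone, with log2 fold changes of 0.97 and 0.44, whereas against flat cultures 2 and 4 alone these were 2.95 and 2.80. *Tinagl1*, an extracellular matrix protein, fell from 125 ± 17.2 to 62.8 ± 21.2 RPM, a log2 fold change of −1.04 (limma adjusted p = 0.008), and its adjusted p against flat cultures 1 and 3 alone was 0.0522. Of 40 genes of cytoplasmic and nuclear transduction 39 were tested, with 5 (12.8%) called higher, 0 lower and a median of 0.56. *Ctnnb1*, which encodes β-catenin, was at 1150, 1110, 1390, 1390, 1090 and 1130 RPM in reaggregates 1 to 6 and at 453, 544, 524 and 429 RPM in flat cultures 1 to 4. All reaggregates were above all flat cultures, and flat cultures of the 2 kinds were interleaved. The log2 fold change of *Ctnnb1* was 1.31 (SE 0.152, limma adjusted p = 0.000247), and it was 1.30 and 1.32 against flat cultures with no laboratory named and with the de Bruijn label. *Dact3*, which binds Dishevelled, and *Csnk1e*, a kinase that acts on it, were also called, with log2 fold changes of 1.29 and 1.12 (limma adjusted p = 0.00332 and 0.0342). *Csnk1e* was not called against flat cultures 1 and 3 alone, at 0.48, beside 1.77 against flat cultures 2 and 4 alone, and flat culture 3, at 114 RPM, was above reaggregates 5 and 6, at 75.9 and 71.3 RPM.

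For planar cell polarity and other signalling without β-catenin, 28 of 30 listed genes were tested, 3 (10.7%, near the 7.32% of all genes) were called higher, 0 lower, and the median was 0.29. *Daam2*, a formin that binds Dishevelled, rose to 88.7 ± 23.3 RPM (SD, 6 reaggregates) beside 23.1 ± 21.8 RPM (SD, 4 flat cultures), log2 fold change 2.33 (limma adjusted p = 0.00493). It was 1.29 against flat cultures 1 and 3 alone and 3.36 against flat cultures 2 and 4 alone, called in both. The calcium-dependent transcription factors *Nfatc2* and *Nfatc4* had log2 fold changes of 2.12 and 1.83 (limma adjusted p = 0.0485 and 0.00786), and neither was called against flat cultures 1 and 3 alone (adjusted p = 0.307 and 0.105). In *Nfatc2*, reaggregates 5 and 6, at 0.759 and 0.531 RPM, lay far below reaggregates 1 to 4, at 7.57, 5.17, 7.95 and 13.3 RPM, and within the range of flat cultures, from 0.121 to 1.80 RPM.

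Genes that are often read as targets of β-catenin moved in both directions. Of 23 listed, which include *Axin2*, *Lef1* and *Dkk1* and also 7 genes of the lists above, 15 were tested, 5 (33.3%) were called higher and 2 (13.3%) lower, and the median was 0.39. *Jag1*, a Notch ligand, rose to 247 ± 33.2 RPM (SD, 6 reaggregates) beside 67.7 ± 71.8 RPM (SD, 4 flat cultures), *Wisp1*, a secreted matricellular protein, to 298 ± 26.4 beside 77.5 ± 61.4 RPM, and *Nr4a2*, a nuclear receptor that is also an immediate early gene, to 39.1 ± 15.3 beside 6.99 ± 2.30 RPM. Their log2 fold changes were 2.60, 2.37 and 2.37 (limma adjusted p = 0.00981, 0.00416 and 0.000595). Against flat cultures 1 and 3 alone these were 1.16, 1.21 and 2.48, and against flat cultures 2 and 4 alone 4.03, 3.52 and 2.25, all called. *Ccnd1*, which encodes cyclin D1, was between 180 and 276 RPM in reaggregates and at 880, 1960, 1090 and 1810 RPM in flat cultures 1 to 4. It fell by 2.64 on the log2 scale (SE 0.232, limma adjusted p = 6.6e-05), with 6 of 6 reaggregates below all flat cultures. *Fosl1*, an AP-1 subunit, fell from 116 ± 39.2 to 32.6 ± 3.82 RPM, a log2 fold change of −1.75 (limma adjusted p = 0.000406). *Notum* and *Sp5* were listed at 0 in every library.

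Markers were measured for the labelled cell type and for others. Of all tested genes, 7.32% were called higher and 6.53% lower in reaggregates, and 1.82% higher and 3.87% lower with the de Bruijn label. Of 9 stromal markers 8 were tested and 5 were called higher in reaggregates, the most abundant being *Col1a2*, with 9630 ± 1612 RPM (SD) in the 6 reaggregates against 3228 ± 2250 RPM (SD) in the 4 flat cultures and not called against flat cultures 1 and 3 alone, while *Thy1* was never above the floor. Averaging each pair of close reaggregates left *Pdgfra* and *Pdgfrb* called. The limma adjusted p was then 0.0844 for *Col1a1*, 0.0944 for *Col1a2* and 0.0689 for *Col3a1*, at nearly the same log2 fold changes. The 3 other tested markers had lower means in reaggregates and were not called, *Vim* at 4540 beside 6622 RPM, with every reaggregate below every flat culture, *Mcam* at 4.67 beside 6.26 RPM and *Cxcl12* at 1238 beside 2334 RPM. *Cxcl12* was at 125 and 662 RPM in flat cultures 1 and 3 and at 4560 and 3990 RPM in flat cultures 2 and 4. Its log2 fold change was 1.85 and not called against flat cultures 1 and 3 alone. Against flat cultures 2 and 4 alone it was −2.03 and called lower. Of 6 endothelial and 6 epithelial markers 1 each was tested and 0 called, the lists summed to at most 1.23 and 0.927 RPM in any library, and *Epcam* and *Krt18* were listed at 0 throughout. Of 6 haematopoietic markers 3 were tested and 0 called. They summed to between 2.39 and 9.38 RPM, with *Cd68* the most abundant, and *Ptprc*, *Cd3e* and *Gata1* were listed at 0. Of 6 osteoblast markers 1 was called higher in reaggregates and 0 lower, the median log2 fold change was 0.05, and the most abundant was *Runx2* at 78.9 and 46.7 RPM. Between the flat cultures 1 osteoblast marker was called higher and 1 lower with the de Bruijn label.

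Adipocyte, proliferation and stress genes were measured in the same comparisons. Of all tested genes, 7.32% were called higher and 6.53% lower in reaggregates against all flat cultures. Against flat cultures 1 and 3 alone these shares were 3.7% and 6.17%, and against flat cultures 2 and 4 alone 15.2% and 10.5%. Between flat cultures, 1.82% were called higher and 3.87% lower with the de Bruijn label. Of 7 adipocyte markers 4 were called higher in flat cultures with the de Bruijn label than in the other flat cultures, and 3 were called lower in reaggregates than in all flat cultures, with 0 called lower against flat cultures 1 and 3 alone and 5 against flat cultures 2 and 4 alone. The 3 called against all flat cultures, *Fabp4*, *Cebpa* and *Pparg*, lost their call with each pair of close reaggregates averaged. Their limma adjusted p was then 0.186, 0.137 and 0.177, at nearly the same log2 fold changes. The 7 markers summed to 354, 354, 627, 692, 263 and 279 RPM in reaggregates 1 to 6, to 375 and 535 RPM in flat cultures 1 and 3, and to 1476 and 1566 RPM in flat cultures 2 and 4, and no marker was at 0 throughout. *Lpl* was highest in mean RPM in reaggregates and in all flat cultures, but in flat cultures 2 and 4, at 365 and 331 RPM, it was below *Fabp4*. *Fabp4*, a lipid-binding protein of adipocytes chosen after its values were seen, was at 435 and 711 RPM in flat cultures 2 and 4 and at most 47.2 RPM elsewhere, whereas *Adipoq*, a marker of mature adipocytes, had means of 0.37 and 0.18 RPM in reaggregates and flat cultures. The cultures with low *Wnt4*, *Sfrp1*, *Sfrp4*, *Fzd1* and *Dkk3* were thus those with the highest adipocyte sum, and their part in the result was not tested. All 12 proliferation genes were called lower in reaggregates (12 against flat cultures 1 and 3 alone, 8 against flat cultures 2 and 4 alone, and 1 lower with the de Bruijn label between flat cultures), the highest in mean RPM in both groups being *Top2a*, and they summed to between 307 and 451 RPM in reaggregates and to 2227, 982, 1826 and 1206 RPM in flat cultures 1 to 4. With each pair of close reaggregates averaged, *Mki67*, *Top2a*, *Pcna* and *Tyms* lost their call against all flat cultures. Their limma adjusted p was then 0.155, 0.0617, 0.0735 and 0.0847, at nearly the same log2 fold changes. Of 11 immediate early and stress genes 7 were called higher in reaggregates (2 against flat cultures 1 and 3 alone, 8 against flat cultures 2 and 4 alone, and 1 lower with the de Bruijn label between flat cultures), which were dissociated with enzymes before RNA was extracted. With each pair of close reaggregates averaged, *Atf3* and *Nr4a1* kept their call against all flat cultures. The limma adjusted p was then 0.15 for *Fos*, 0.0831 for *Fosb*, 0.14 for *Jun*, 0.101 for *Hspa1a* and 0.104 for *Hspa1b*, at nearly the same log2 fold changes. The 11 genes summed to 3161, 2750, 2502, 2674, 3253 and 2598 RPM in reaggregates 1 to 6 and to 489, 812, 3078 and 900 RPM in flat cultures 1 to 4, with *Egr1* highest in mean RPM in both groups, and no gene of these 2 lists was at 0 throughout. The sum in flat culture 3 was in the range of the reaggregates, although single genes of the list lay above or below that range, and flat culture 3 was also the one nearest to the reaggregates for *Lrp5*, *Lrp6*, *Ror1* and *Dkk3*. Their part in the result was not tested.

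IL-3 was compared within the reaggregates to ask whether the cytokine altered the same genes. With 3 reaggregates in each group, limma called 0 of the 21 members, as 0% of all tested genes, and 68 of the 16933 genes but 0 of the members had an unadjusted p of at most 0.05. With the 3 pairs of close reaggregates as a block, which removes the spread between pairs, limma again called 0 genes, and 564 of the 16933 genes but 0 members had an unadjusted p of at most 0.05. The log2 differences of the members between reaggregates with and without IL-3 ran from −0.23 for *Fzd8* to 0.54 for *Wnt2b*. With IL-3, 3 members were higher in all 3 pairs, *Wnt4*, *Wnt2b* and *Fzd7*, as were 12.7% of all tested genes, and 0 were lower in all 3, as were 8.78% of all genes. *Wnt4* was at 24.9 and 30.4, 17.8 and 22.3, and 28.7 and 29.5 RPM without and with IL-3, a log2 difference of 0.21 (SE 0.0871 in the blocked fit, limma adjusted p = 0.982). Its adjusted p was between 0.982 and 1 over the 9 alternatives. By r across genes, the pairs of close reaggregates differed more from each other than within a pair, but single members did not always show this. In *Dkk3* only the pair at 1180 and 1190 RPM stood apart. The pairs at 771 and 728 RPM and at 816 and 762 RPM overlapped. The library with IL-3 is given last in each pair.

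Several members lie side by side in the genome. *Wnt3a* and *Wnt9a* are 16.2 kb apart on chromosome 11 on opposite strands, and *Wnt9a* reached 5.26 RPM while *Wnt3a* was at most 0.121 RPM. *Wnt1* and *Wnt10b* are 11.7 kb apart on chromosome 15, with highest values of 0.115 and 2.05 RPM. Of the pairs *Wnt6* and *Wnt10a*, 6.20 kb apart on chromosome 1, and *Wnt3* and *Wnt9b*, 24.3 kb apart on chromosome 11, no gene exceeded 0.136 RPM. In none of the 4 pairs were both neighbours above 0.5 RPM.

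The 250 bases before the annotated start of each gene in NCBIM37 were searched on both strands for the core of the site bound by Tcf and Lef factors, CTTTG followed by 2 bases that are each A or T, and for the GC box GGGCGG. The core of the Tcf and Lef site was found in 3 of 43 members, or 6.98%, which were *Fzd7*, *Wnt8a* and *Wnt11*, and in 13.9% of 22380 protein-coding genes. A GC box was found in 30 of 43, or 69.8%, and in 39.6% of all genes, and the median number of CG dinucleotides was 22 beside 8. A match is a description of the letters in this window only. *Wnt4* and *Sfrp1* were high in flat cultures 1 and 3. With reaggregates counted singly, *Wnt9a* and *Lrp6* were called higher against either kind of flat culture. With each close pair averaged, neither was called against flat cultures 1 and 3. The windows of these 4 genes are shown 5′ to 3′ on the gene's strand, with GC boxes of either strand in capitals. They lie at chr4:136833154-136833403 (plus), chr8:24521724-24521973 (plus), chr11:59120180-59120429 (plus) and chr6:134516984-134517233 (minus), and hold 7, 0, 5 and 1 GC boxes and 33, 22, 48 and 45 CG dinucleotides.
Wnt4: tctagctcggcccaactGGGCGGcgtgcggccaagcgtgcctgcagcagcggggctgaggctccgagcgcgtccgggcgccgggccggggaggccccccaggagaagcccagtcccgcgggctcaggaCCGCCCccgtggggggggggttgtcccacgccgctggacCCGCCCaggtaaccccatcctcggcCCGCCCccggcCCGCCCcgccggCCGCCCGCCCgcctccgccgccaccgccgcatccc
Sfrp1: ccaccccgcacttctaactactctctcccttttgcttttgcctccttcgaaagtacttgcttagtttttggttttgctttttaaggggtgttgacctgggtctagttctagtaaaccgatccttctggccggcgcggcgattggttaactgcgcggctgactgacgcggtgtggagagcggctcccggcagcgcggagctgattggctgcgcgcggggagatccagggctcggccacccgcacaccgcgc
Wnt9a: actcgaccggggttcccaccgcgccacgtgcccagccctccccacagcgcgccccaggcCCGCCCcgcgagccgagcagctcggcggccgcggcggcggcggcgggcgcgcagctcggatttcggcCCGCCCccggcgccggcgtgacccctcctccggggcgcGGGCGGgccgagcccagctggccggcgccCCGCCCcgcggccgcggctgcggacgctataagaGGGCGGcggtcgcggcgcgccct
Lrp6: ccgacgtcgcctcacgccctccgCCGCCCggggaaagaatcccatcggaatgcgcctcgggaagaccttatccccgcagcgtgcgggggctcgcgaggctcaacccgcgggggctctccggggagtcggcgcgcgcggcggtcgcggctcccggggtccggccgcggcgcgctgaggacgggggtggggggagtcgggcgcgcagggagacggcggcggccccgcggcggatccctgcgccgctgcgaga
The window of *Sfrp1* was the only one of the 4 without a GC box, and none of the 4 held the core of the Tcf and Lef site.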

How the data were processed

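RNA of 10 libraries of OP9 cells was measured. The authors sequenced 50-base single-end reads, aligned them to NCBIM37 (mm9) with TopHat 1.2.0, summed reads per gene in GeneProf, divided reads of several positions in proportion to unique reads and deposited the values as RPM. The table also holds log2 fold changes and adjusted p-values from the authors' comparison of reaggregates with flat cultures in DESeq, and these were not used. Since the deposited RPM are not counts, log2(RPM + 0.5) was computed and tested with limma 3.58.1 in R 4.3.3 (empirical Bayes with a mean-variance trend), for genes above 0.5 RPM in at least 1 library. Python 3.11.15, pandas 2.3.3, scipy 1.17.1 and matplotlib 3.10.9 were used for the rest, and the code was tested on simulated data. No per-sample value column was left unmatched to its sample.

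Depth was read from the commonest value between 0.05 and 0.2 RPM in each library. Of values up to 10 RPM, between 39.8% and 49.1% per library were whole multiples of that value, the others including shared reads. Gene positions, exon lengths and promoter windows came from GENCODE vM1 on NCBIM37, the authors' build in a later gene annotation. Reads shared between related genes are divided by the authors' rule, so genes with close relatives carry that uncertainty. Ratios of levels from rounded reads carry Clopper-Pearson intervals.

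Named in full are members called between reaggregates and flat cultures or between labels, or with a mean of at least 5 RPM in all reaggregates or all flat cultures. From each pathway list up to 3 called genes per direction are named, and *Ctnnb1*. The members and lists were chosen with earlier results of these data known. Listed genes absent from the table, among them *Kremen2*, *Sostdc1* and *Mmp7*, were left out of the counts. The alternatives changed the pseudocount, the filter, the scaling, the trend, the libraries and the grouping. The single-gene exact test permuted group labels over all 210 splits.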

Additional observations from a re-analysis of the deposited data

Results flagged for a closer look

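By Dixon's test, 42 groups of member values were examined for a library far from the others. These were the 6 reaggregates and the 4 flat cultures of each tested member. The 2 found were *Ror1* in flat culture 3, at 1.68 RPM where the nearest flat culture had 0.23 RPM, and *Wnt2b* in flat culture 2, at 0 RPM where the nearest had 0.479 RPM. In independent values chance gives about 1 in 20, but these values are not independent, since reaggregates come in close pairs and flat cultures are of 2 kinds.

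*Wnt4*, *Sfrp1*, *Sfrp4*, *Fzd1* and *Dkk3* differed between flat cultures with the de Bruijn label and those with no laboratory named by a limma test of that difference. The log2 differences were −7.00 for *Wnt4*, −3.51 for *Sfrp1*, −3.44 for *Sfrp4*, −2.15 for *Fzd1* and −1.92 for *Dkk3*. The labels give no passage, culture date or preparation that would separate the source of the cells from their handling. The Methods describe the variance by cell source as equivalent to that by passage number.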

How the results depend on the processing

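Of the log2 values of single genes under the alternatives, 570 kept direction and side of the threshold, 27 no longer passed and 9 newly passed. Another 49 changed sign with no call on either side, 30 of them for IL-3, 15 between flat cultures and 4 between reaggregates and flat cultures. These 4 were *Fzd1* (−0.03), *Sfrp4* (−0.34) and *Fzd5* (0.12) against flat cultures with no laboratory named, and *Sfrp1* (1.05) against the de Bruijn label. *Wnt4* changed sign and was called, at −1.62 against flat cultures with no laboratory named. Genes called higher in reaggregates (1239) were 321 with close reaggregates averaged, 769 with these as a random block, 627 and 2579 against flat cultures with no laboratory named and with the de Bruijn label, 345 and 277 with only reaggregates without and with IL-3, and between 766 and 2121 with 1 library left out. Genes called lower (1106) were 429, 677, 1044, 1775, 474 and 360 in the same order, and between 815 and 1522. Members called higher (6) were 1 when averaged and 1 with only reaggregates without IL-3 or with it, and between 5 and 8 with 1 library left out. Members called lower (0) were 2 against flat cultures with no laboratory named, and 0 with any library left out. Pathway genes called higher (18) were 7 when averaged, 13 and 31 against flat cultures with no laboratory named and with the de Bruijn label, 7 and 6 without and with IL-3, and between 13 and 26. Pathway genes called lower (4) were 2 when averaged, 2 and 7 against the 2 kinds of flat culture, 2 and 2 without and with IL-3, and between 2 and 5. Averaging, chosen here after the values were seen, moved the members called against flat cultures with no laboratory named from 4 to 0 higher and from 2 to 1 lower, and left those against the de Bruijn label at 9 and 0. Genes called between flat cultures (965) were 166 without the filter, 1763 after quantile normalization, 2348 with all 10 libraries in 1 fit, and between 1497 and 2525 with 1 left out, where the lone culture is taken to vary like the other groups. Members called there were 5 lower, 1 without the filter and between 5 and 7, and 0 higher, between 0 and 2. Averaging and the IL-3 subsets have fewer samples, and for the other changes the cause was not tested. For IL-3 the counts stayed at 0 throughout.

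Reaggregates and flat cultures share replicate numbers. Deviations of libraries with the same number correlated at −0.04, −0.21, 0.07 and 0.16, so the numbers do not pair them. Not every library correlated best with its own number. Reaggregates 1 and 2 correlated best with flat culture 3 (0.34 and 0.38), and 5 and 6 with flat culture 1 (0.24 and 0.33). For reaggregates 3 and 4 the best was flat culture 4 (0.153 and 0.155). The replicate block moved the genes called higher from 1239 to 1885 and lower from 1106 to 1154, members to 7 and 0, and pathway genes to 25 and 4. The median log2 fold change of all genes was 0.04, −0.02 after quantile normalization and 0.04 after median-ratio scaling. Depth limits the 22 members at or under 3 reads, for which no change can be seen.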
